A study of Mus musculus with 8 samples.

Results

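The 10 genes described here encode the surfactant system and markers of alveolar cells. They were chosen by symbol, with earlier results of these data known. They are Sftpa1, Sftpb, Sftpc, Sftpd, Napsa, Abca3, Lamp3, Lpcat1, Hopx and Ager, 10 of the 22180 genes tested. Each had 1 probe set with its symbol alone, so no choice among probe sets was needed. Arrays gave log2 expression for the whole lung of each of 8 mouse embryos on a mixed C57BL/6 x 129S6 background at embryonic day 14.5, 1 array an embryo. The 4 mutants were Shh-cre:Ezh2-flox/flox and the 4 controls were Shh-cre, so both groups carry the Cre allele, which is active in epithelium that expresses Shh, and the mutants also carry floxed Ezh2, the gene of the catalytic subunit of Polycomb repressive complex PRC2. Mutants 1 and 2 (litter 3) were littermates, as were mutants 3 and 4 (litter 4), controls 1 and 2 (litter 1) and controls 3 and 4 (litter 2). The comparison asks how expression of these genes differs in lungs targeted for deletion of Ezh2 in epithelium. Cells that never expressed Shh are not targeted, and each value averages all cells of the lung.

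Pulmonary surfactant is a film of phospholipid and proteins that lowers surface tension at the air-liquid interface. Alveolar type 2 cells make it, process its hydrophobic proteins, store it in lamellar bodies and secrete it, and flat alveolar type 1 cells carry out gas exchange. Both cell types mature late in gestation from progenitors at the distal tips of the branching epithelium, which already express Sftpc while airways are still branching. In bulk tissue, fewer cells of a type and less RNA per cell cannot be told apart.

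Ezh2 had log2 values of 11.80, 11.80, 11.75 and 11.77 in mutants 1 to 4, against 11.84, 11.93, 11.83 and 11.89 in controls 1 to 4. All mutants lay below all controls, at a log2 change of −0.09, short of the threshold (limma, Benjamini-Hochberg adjusted p = 0.652). Whether its probes lie in the floxed part is not known here, so the values are no check of the deletion. Lung identity markers were present in both groups. Nkx2-1, the regulator of lung endoderm, averaged 10.74 ± 0.11 in mutants and 10.79 ± 0.10 in controls, and Foxf1, a regulator of lung mesenchyme, averaged 11.86 ± 0.09 in mutants and 11.88 ± 0.05 in controls (SD, n = 4 each). Xist was low in mutant 3 (6.42) and in controls 1 and 2 (6.74 and 6.37), and high in the other 5 embryos (12.6 or more), so both low controls belong to litter 1. The table holds no detection calls. The median over genes of the mean log2 value was 7.56 and the lower quartile was 6.10.

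Promoter sequence was available for 7 of the 10 genes in a RefSeq table of GRCm38.p6. Napsa, Sftpc and Sftpd had none, so the motif and CpG counts below do not cover them. Shown here are the 250 bases before the annotated start, 5′ to 3′ on the gene's strand, of the 2 genes with promoter sequence and the largest log2 changes (Sftpa1 and Lamp3), of Sftpb, whose values differed most between litters, and of Lpcat1, whose values were lower in every mutant than in every control. Capitals mark matches to 3 motifs: TATAAA on the gene's strand (TATA box), and CTCAAG (NKX2-1) and TGTTTNC (FOXA) on either strand. No 2 matches overlap.
Sftpa1, chr14:41131538-41131787, plus strand: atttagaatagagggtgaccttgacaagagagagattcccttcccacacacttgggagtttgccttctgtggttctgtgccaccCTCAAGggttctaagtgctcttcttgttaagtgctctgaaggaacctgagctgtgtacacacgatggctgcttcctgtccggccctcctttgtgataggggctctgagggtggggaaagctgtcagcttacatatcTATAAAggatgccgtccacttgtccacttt
Lamp3, chr16:19706366-19706615, minus strand: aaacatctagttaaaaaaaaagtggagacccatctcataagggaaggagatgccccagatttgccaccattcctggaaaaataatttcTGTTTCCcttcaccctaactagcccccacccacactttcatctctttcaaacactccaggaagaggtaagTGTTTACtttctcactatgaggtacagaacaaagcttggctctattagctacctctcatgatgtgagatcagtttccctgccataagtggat
Sftpb, chr6:72304360-72304609, plus strand: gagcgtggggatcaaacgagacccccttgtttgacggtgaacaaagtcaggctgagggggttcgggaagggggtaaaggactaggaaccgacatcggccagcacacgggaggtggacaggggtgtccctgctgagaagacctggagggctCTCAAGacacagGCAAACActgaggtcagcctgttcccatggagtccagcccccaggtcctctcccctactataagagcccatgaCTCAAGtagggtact
Lpcat1, chr13:73466981-73467230, plus strand: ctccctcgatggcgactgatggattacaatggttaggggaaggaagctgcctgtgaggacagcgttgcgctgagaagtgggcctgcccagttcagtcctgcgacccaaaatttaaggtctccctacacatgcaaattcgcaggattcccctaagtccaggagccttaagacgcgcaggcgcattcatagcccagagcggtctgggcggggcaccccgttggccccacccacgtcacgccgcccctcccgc

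The NKX2-1 letters occurred once in the Sftpa1 window, 161 to 166 bases before the start, and at 2 places in the Sftpb window, 10 to 15 and 95 to 100 bases before it. They were also found in 1 of the 2 annotated Hopx windows and in 13.3% of all 32817 promoter windows of this length. The FOXA letters were at 2 places in the Lamp3 window and 1 in the Sftpb window, against 17.8% of all windows with at least 1 match. A TATA box was found in the Sftpa1 window, 25 to 30 bases before the start, and in 7.60% of all windows. These matches describe letters only, and binding was not measured. As background, PRC2 in mammals is found mostly at promoters rich in CpG dinucleotides. CpG dinucleotides numbered 0 in the Lamp3 window, 3 in Sftpa1 and in Ager, 7 in Sftpb, 8 and 18 in the Hopx windows, 16 in Lpcat1 and 21 in Abca3, beside a median of 6 over all windows.

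Of the 10 genes, Napsa rose in mutant lungs, 0 fell and 9 did not pass the threshold (limma, Benjamini-Hochberg adjusted p under 0.05 over all genes). In the same fit 0.852% of all genes were called, 0.604% as higher and 0.248% as lower. An unadjusted p under 0.05 was found for 5 of the 10, beside 9.87% of all genes. The log2 change was positive for 8 genes and negative for Lpcat1 and Ager. Its median was 0.24 over the 10, and 0.01 over all genes. The 2 groups did not overlap for 5 of the 10 genes, with mutants above controls for Napsa, Sftpa1, Lamp3 and Hopx and below them for Lpcat1. Over all genes the groups did not overlap for 8.07%, with mutants above for 4.48% and below for 3.6%. The 10 genes were chosen with earlier results known, so these counts and medians describe them and are no test of the set.

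**Figure D1:**
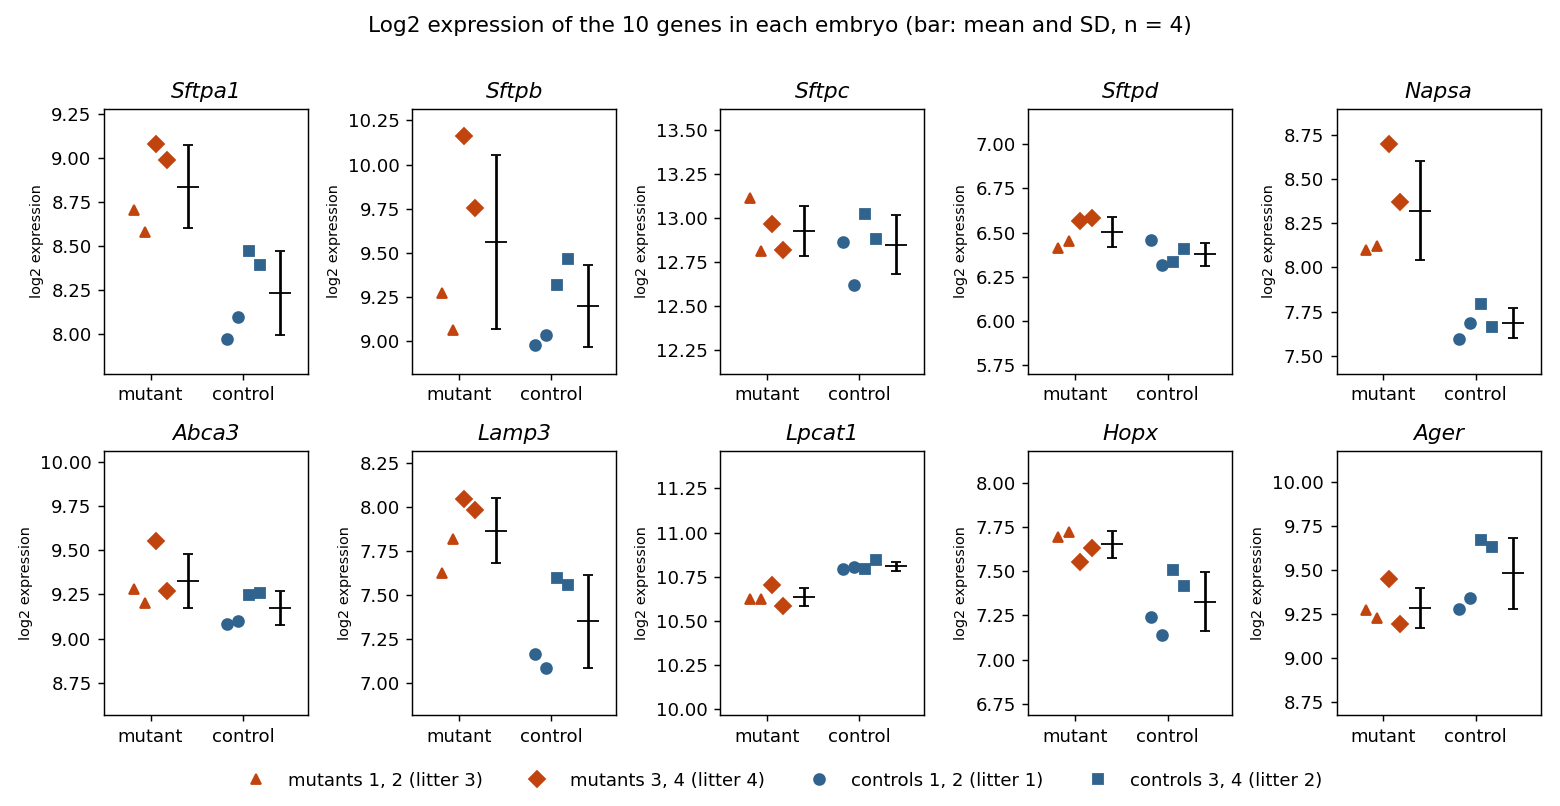
Log2 expression (y axis) of each gene in each embryo, mutants left and controls right, with the shape of a point giving its litter and the bar giving mean and SD (n = 4); every panel spans 1.5 log2 units. The groups do not overlap for Sftpa1, Napsa, Lamp3, Lpcat1 and Hopx, and littermates often lie close together.

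Among the proteins of surfactant itself, the 4 genes differed in size of change and none passed. Sftpa1 encodes surfactant protein A, a collectin of innate defence. Its log2 values were 8.70, 8.58, 9.08 and 8.99 in mutants 1 to 4, against 7.97, 8.10, 8.47 and 8.39 in controls 1 to 4. Every mutant was above every control, with a gap of 0.10 between the lowest mutant and the highest control. The log2 change was 0.60 ± 0.14 (SE), which is 1.52-fold (limma, Benjamini-Hochberg adjusted p = 0.0823). An exact 2-sided permutation of embryos, littermates taken as independent, gave p = 0.0286, which is the lowest value possible at this size.

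Sftpb encodes surfactant protein B, which is needed for surfactant film formation and for lamellar bodies. Its log2 values were 9.27, 9.06, 10.16 and 9.76 in mutants, against 8.98, 9.03, 9.32 and 9.46 in controls. Mutants 3 and 4 were above all controls, while mutants 1 and 2 lay inside the control range. Its litter means were 9.17 and 9.96 in the mutant litters 3 and 4, and 9.01 and 9.39 in the control litters 1 and 2. The mutant litters thus differed by 0.79, more than the log2 change between genotypes of 0.37 ± 0.21 (SE; adjusted p = 0.636 by limma). Without litter 4 the log2 change was −0.031.

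Sftpc encodes surfactant protein C, a hydrophobic peptide made only in the lung and the classic marker of distal epithelium. Its log2 values were 13.11, 12.81, 12.96 and 12.82 in mutants, against 12.86, 12.62, 13.02 and 12.88 in controls. The groups overlapped in part, as mutant 1 lay above all controls and control 2 below all mutants. The log2 change was 0.08, with a 95% confidence interval of −0.15 to 0.31 (limma adjusted p = 0.864). Sftpd encodes surfactant protein D, the second surfactant collectin. It had log2 values of 6.41, 6.45, 6.56 and 6.58 in mutants, against 6.46, 6.32, 6.33 and 6.40 in controls. Mutants 3 and 4 were above all controls and mutants 1 and 2 were not. These values are near the lower quartile of all genes, and the log2 change of 0.12 (95% confidence interval −0.02 to 0.27) missed the threshold (limma adjusted p = 0.595). All values of the 4 protein genes, averaged per embryo, were 9.23 to 9.69 in mutants and 9.02 to 9.29 in controls.

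**Figure D2:**
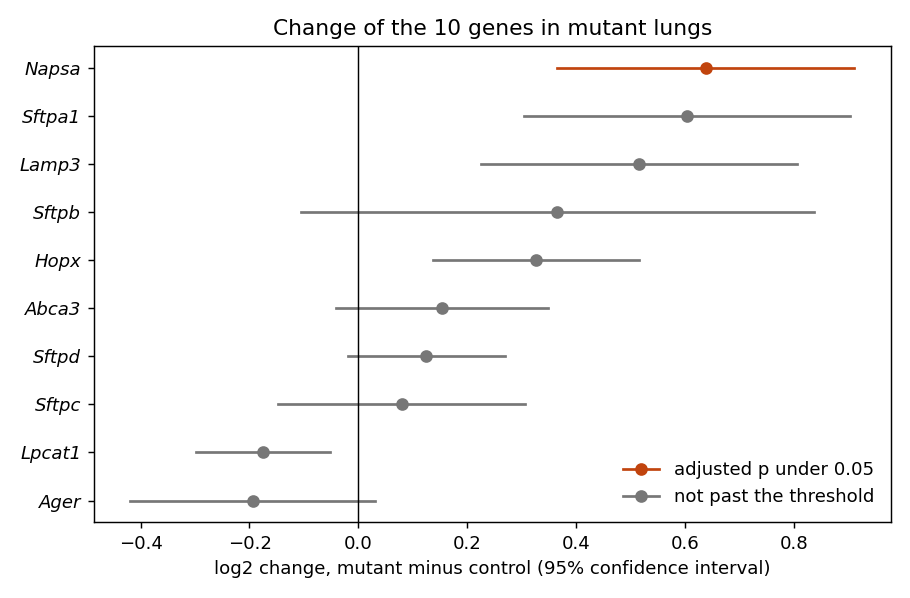
Log2 change (x axis, mutant minus control) of each gene with its 95% confidence interval from limma, ordered from the highest at the top. Napsa, at 0.64, is the gene with an adjusted p under 0.05, and the intervals of Sftpb, Abca3, Sftpd, Sftpc and Ager include 0.

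The genes that process and package surfactant gave the 1 call. Napsa encodes napsin A, an aspartic protease of type 2 cells that cleaves the precursors of surfactant proteins B and C. It had log2 values of 8.10, 8.12, 8.70 and 8.37 in mutants, against 7.60, 7.69, 7.79 and 7.66 in controls. The lowest mutant was 0.30 above the highest control. Napsa averaged 8.32 ± 0.28 in mutants and 7.68 ± 0.08 in controls (SD, n = 4 each). It rose by a log2 change of 0.64 ± 0.12 (SE), or 1.56-fold (limma, Benjamini-Hochberg adjusted p = 0.0421). The call is close to the threshold and was lost when single embryos were left out. The adjusted p by limma was 0.118 without mutant 4 and 0.083, 0.0933, 0.0706 and 0.149 without controls 1, 2, 3 and 4. The log2 change lay between 0.43 and 0.85 in 25 alternatives, with an adjusted p of 0.00741 to 0.174, and 13 of them kept the call. These are not independent checks. Napsa has 1 probe set, so the mean of probe sets and the probe set with the largest SD reuse the same values. Fits that change only the error model, the blocks or the genes tested keep the same log2 change by design.

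Lamp3 encodes a lysosome-associated membrane protein of lamellar bodies that dendritic cells also express. Its log2 values were 7.62, 7.82, 8.04 and 7.98 in mutants, against 7.17, 7.08, 7.60 and 7.56 in controls. All mutants lay above all controls, but mutant 1 and control 3 were only 0.03 apart. The log2 change was 0.52 ± 0.13 (SE; adjusted p = 0.144 by limma). The mean of 12 measured markers of dendritic cells and macrophages was 7.43 to 7.65 in mutants and 7.39 to 7.50 in controls. By limma 0 of the 12 passed and 2 had an unadjusted p under 0.05, beside 9.87% of all genes. The part of these cells in the Lamp3 values was not tested.

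Abca3 encodes the transporter that loads phospholipid into lamellar bodies. It had log2 values of 9.28, 9.20, 9.55 and 9.27 in mutants, against 9.08, 9.10, 9.25 and 9.26 in controls. Mutants 1 and 4 lay just above the highest control, mutant 3 further above it, and mutant 2 inside the control range. The log2 change of 0.15 (95% confidence interval −0.04 to 0.35) missed the threshold (limma adjusted p = 0.630). Lpcat1 encodes the acyltransferase that remodels surfactant phosphatidylcholine. Its log2 values were 10.62, 10.62, 10.70 and 10.58 in mutants, against 10.79, 10.80, 10.79 and 10.85 in controls. Every mutant was below every control. This was a small and even difference, a log2 change of −0.17 ± 0.06 (SE; adjusted p = 0.282 by limma), and it stayed between −0.20 and −0.15 in 25 alternatives, none of which called it. As for Napsa, some of these settings keep the same log2 change by design.

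The 2 genes used as markers of type 1 cells differed in direction. Hopx encodes an atypical homeodomain protein that embryonic heart also expresses. Its log2 values were 7.70, 7.72, 7.56 and 7.63 in mutants, against 7.24, 7.14, 7.51 and 7.42 in controls. All mutants were above all controls, by at least 0.05. The log2 change was 0.33 ± 0.09 (SE; adjusted p = 0.158 by limma). The mean of 13 heart muscle markers was 7.57 to 7.70 in mutants and 7.50 to 7.64 in controls. By limma 0 of the 13 passed and 2 had an unadjusted p under 0.05, beside 9.87% of all genes. The part of heart muscle in the Hopx values was not tested. Ager encodes RAGE, a receptor abundant on type 1 cells. It had log2 values of 9.27, 9.23, 9.45 and 9.19 in mutants, against 9.28, 9.34, 9.67 and 9.63 in controls. Of the mutants, 3 lay below all controls and mutant 3 lay above controls 1 and 2. The log2 change of −0.19 (95% confidence interval −0.42 to 0.03) missed the threshold (limma adjusted p = 0.594).

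Litter moved with these values inside each genotype. In mutants, 8 of the 10 genes had a higher mean in litter 4 than in litter 3, Sftpc and Hopx being lower. In controls 9 of the 10 were higher in litter 2 than in litter 1, Sftpd being lower. The difference between control litters was 0.45 for Lamp3, 0.40 for Sftpa1, 0.38 for Sftpb and 0.34 for Ager, beside log2 changes between genotypes of 0.52, 0.60, 0.37 and −0.19. For Napsa it was 0.09 between control litters and 0.42 between mutant litters. No litter held both genotypes, so genotype and litter cannot be told apart for an effect of whole litters. With each litter averaged, 2 against 2, the adjusted p by limma was 0.119 for Napsa, 0.251 for Sftpa1, 0.361 for Lamp3 and 0.416 for Hopx.

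**Figure D3:**
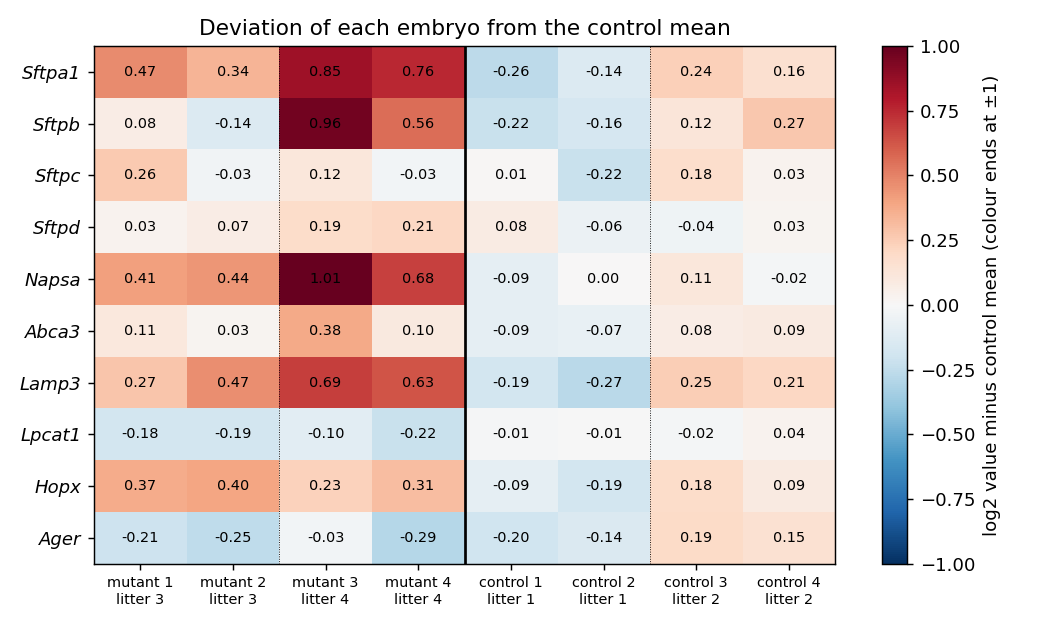
Log2 value of each gene (rows) in each embryo (columns, mutants left of the solid line) minus the mean of the 4 controls, printed in each cell and coloured. The pair of mutants 3 and 4 has the highest values of Sftpa1, Sftpb, Napsa and Lamp3, and controls 3 and 4 exceed controls 1 and 2 for most genes.

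Whether Napsa changed more than the other 9 genes was tested as the within-array difference, in 9 pairs. Its change was larger than that of Ager by 0.83, Lpcat1 by 0.81, Sftpc by 0.56, Sftpd by 0.51 and Abca3 by 0.48. The 2-sided exact permutation p was 0.0286 for Ager, Lpcat1, Sftpd and Abca3 and 0.0571 for Sftpc, and these came to 0.0643 and 0.103 after Benjamini-Hochberg adjustment over the 9 pairs. Against Sftpa1, Lamp3, Sftpb and Hopx the change of Napsa was larger by 0.03, 0.12, 0.27 and 0.31, with exact permutation p of 0.686, 0.4, 0.171 and 0.143. No pair passed the adjusted threshold, and Napsa had been singled out with its result known. The pairs at 0.0286 had the lowest p possible with these embryos, littermates taken as independent. The number of embryos thus limits what this test can show.

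Of 29 measured genes of surfactant processing, packaging and turnover, 4 of which are among the 10 genes, 3 rose, 0 fell and 26 did not pass, with a median log2 change of 0.05. An unadjusted p under 0.05 was found for 10 of them by limma (all genes 9.87%), and the list mean was 9.16 to 9.24 in mutants and 9.01 to 9.13 in controls, without overlap. The difference in list mean rests mostly on Napsa, Lamp3, Adgrf5, Lpin1, Ctsh and Slc34a2, with log2 changes of 0.40 to 0.64. Of the 29, 9 had a negative log2 change, and the median over the 25 outside the 10 genes was 0.03. Both calls beside Napsa were close to the threshold. Adgrf5, an adhesion receptor that limits the surfactant pool, rose by 0.55 ± 0.10 (SE) and Lpin1, a phosphatidate phosphatase, by 0.40 ± 0.08 on the log2 scale, with adjusted p of 0.0298 and 0.0426 by limma. These calls were lost without mutant 1 (adjusted p = 0.0809 and 0.0839 by limma), mutant 3 (0.0639 and 0.0791), mutant 4 (0.0806 and 0.16), control 1 (0.0582 and 0.073) and control 2 (0.0799 and 0.1), that of Adgrf5 also without control 3 (0.0829) and that of Lpin1 without control 4 (0.155). Over 25 alternatives Adgrf5 kept its call in 14 and Lpin1 in 12. The values are of whole lung, so the cells in which Adgrf5 and Lpin1 rose are not known here. Ctsh, a cysteine protease that also acts on the surfactant protein B precursor, averaged 9.95 in mutants and 9.37 in controls, a log2 change of 0.58 (limma adjusted p = 0.0744), and Slc34a2, the phosphate transporter of type 2 cells, averaged 7.29 in mutants and 6.78 in controls (0.51, adjusted p = 0.351). Both were picked after their values were seen. The most highly expressed genes of this list, Nedd4, Psap, Fasn and Acly, had log2 changes of −0.004, 0.17, 0.02 and −0.01.

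Among 19 other markers of type 2 cells, 1 rose, 1 fell and 17 did not pass, with a median log2 change of 0.06. By limma 11 of the 19 had an unadjusted p under 0.05, beside 9.87% of all genes. Of these 11, Slc34a2, Ctsh and Fabp5 are also in the processing list. Cebpa is also among the regulators given below, and Etv5 among the regulators and the distal tip genes. The counts of these lists thus share genes and are not separate results. The groups did not overlap for 9, with mutants above for 5 and below for 4, beside 8.07%, 4.48% and 3.6% of all genes. The ranges of the list mean overlapped. Il33, an epithelial cytokine, rose by 0.80 ± 0.08 (SE) and Hc, the gene of complement C5, fell by 0.57 ± 0.08 (SE), both in log2 (adjusted p = 0.000708 and 0.00604 by limma), and both calls held in all 24 alternatives that gave a value. Hc averaged 5.68 in mutants and 6.25 in controls, close to the lower quartile of all genes. Egfl6, Etv5, Dram1 and Cldn18, the most highly expressed of the others, had log2 changes of 0.45, −0.33, 0.29 and −0.41, and none passed. Among 20 other type 1 markers, Lmo7, a LIM domain protein, rose by 0.74 ± 0.09 (SE) on the log2 scale (limma adjusted p = 0.00291), and was called in all 25 alternatives. Of the others 0 fell and 19 did not pass, and the median log2 change was 0.18. An unadjusted p under 0.05 by limma was found for 10 of the 20, and mutants lay above all controls for 7 and below them for 1. The list mean was 8.78 to 8.85 in mutants and 8.57 to 8.78 in controls, just without overlap. Emp2, Vegfa, Akap5 and Timp3 had log2 changes of 0.23, 0.06, 0.27 and −0.07, and none passed.

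Regulators of surfactant genes moved in both directions. Of 29, Erbb4, the neuregulin receptor, rose by 0.45 ± 0.08 (SE), Foxa1, a forkhead factor of lung endoderm, fell by 0.56 ± 0.06 (SE), both in log2 units, while 27 missed the threshold. The adjusted p was 0.0259 for Erbb4 and 0.00107 for Foxa1 by limma. The call of Foxa1 held in 25 of 25 alternatives and that of Erbb4 in 16 of 25. Erbb4 lost it without mutant 1 (adjusted p = 0.0691 by limma), mutant 4 (0.105), control 3 (0.0643) and control 4 (0.114). Of the 29, 9 had an unadjusted p under 0.05, beside 9.87% of all genes. The log2 change was positive for 17 and negative for 12. Nkx2-1, picked for its role, had a log2 change of −0.04. Cebpa, a C/EBP factor of type 2 cells picked after its values were seen, had 7.84 in mutants against 7.39 in controls (limma adjusted p = 0.0611). Etv5, also in this list, went the other way, with 10.56 in mutants against 10.89 in controls (limma adjusted p = 0.0611). Among 20 genes of distal tip progenitors, Lin28b, an inhibitor of let-7 processing, rose by 0.36 ± 0.06 (SE; adjusted p = 0.0129 by limma), 0 fell and 19 did not pass, with a median log2 change of 0.02. Lin28b averaged 6.42 in mutants and 6.06 in controls, close to the lower quartile of all genes. The call of Lin28b was lost in 6 of 24 alternatives, among them litter means (adjusted p = 0.131 by limma), without mutant 4 (0.0633) and without control 4 (0.0682), and 8 of the 20 genes had an unadjusted p under 0.05. Id2, Fgfr2, Bmp4 and Foxp2, the highest of the rest, had log2 changes of 0.12, −0.13, 0.37 and 0.01. Of 22 general epithelium markers, 1 rose (Ovol1, log2 change 0.41), 0 fell and 21 did not pass. Ovol1 lost its call in 3 of 24 alternatives, with an adjusted p of 0.107 by limma at litter means. Of the 22, 15 had a negative log2 change and 10 had an unadjusted p under 0.05. Mutants lay below all controls for 5 and above them for 1, beside 3.6% and 4.48% of all genes. Their median log2 change was −0.08, and their mean level was 9.11 to 9.19 in mutants and 9.09 to 9.28 in controls. Within controls this mean was 9.10 and 9.09 in litter 1 and 9.28 and 9.27 in litter 2, so it moved with the litter difference given above, and its part in those values was not tested. Epcam, an epithelial adhesion molecule, averaged 10.91 in mutants and 11.17 in controls, a log2 change of −0.26 (limma adjusted p = 0.139). Among markers of other tissues, 1 of 12 mesenchyme genes (Meis2) and 1 of 6 mesothelium genes (Upk1b) rose. Meis2 lost its call in 16 of 25 alternatives, among them the fits without any 1 of the 8 embryos (adjusted p of 0.0647 to 0.115 by limma), and Upk1b in 5 of 25, among them without mutant 4 (0.0517) and control 4 (0.0515). Both list means lay apart, at 11.00 to 11.04 in mutants and 10.86 to 10.98 in controls for mesenchyme and at 8.32 to 8.42 in mutants and 8.06 to 8.23 in controls for mesothelium. Positive log2 changes were found for 10 of the 12 and 5 of the 6. The mesothelium mean rests mostly on Krt19 (log2 change 0.50), which is also among the epithelium markers, and Upk1b (0.46). Upk3b, Lrrn4 and Wt1 had log2 changes of 0.08, 0.001 and −0.007. The part of these tissues in the values of the 10 genes was not tested. Of 12 endothelium and 7 liver and thymus genes 0 passed, and 1 and 0 of them had an unadjusted p under 0.05 by limma.

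With the mean of the epithelium markers as a covariate, 4 of the 10 genes were called higher, Napsa (log2 change 0.68), Sftpa1 (0.71), Lamp3 (0.63) and Hopx (0.38), with adjusted p of 0.0242, 0.00352, 0.00242 and 0.0261 by limma, and 0 were called lower. With the Xist level as a covariate the called genes were Napsa (0.68) and Hopx (0.27), with adjusted p of 0.013 and 0.0304 by limma. Over all genes these 2 fits also called more, 257 higher and 97 lower with the epithelium mean and 361 and 313 with Xist, against 134 and 55. Both covariates also separated the control litters. The epithelium mean was 9.10 and 9.09 in litter 1 and 9.28 and 9.27 in litter 2, and Xist was 6.74 and 6.37 against 12.6 and 12.9. The consensus correlation of littermates was −0.02 and −0.08 in these fits, against 0.153 in the main fit. The part of litter in the added calls was not tested.

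**Figure D4:**
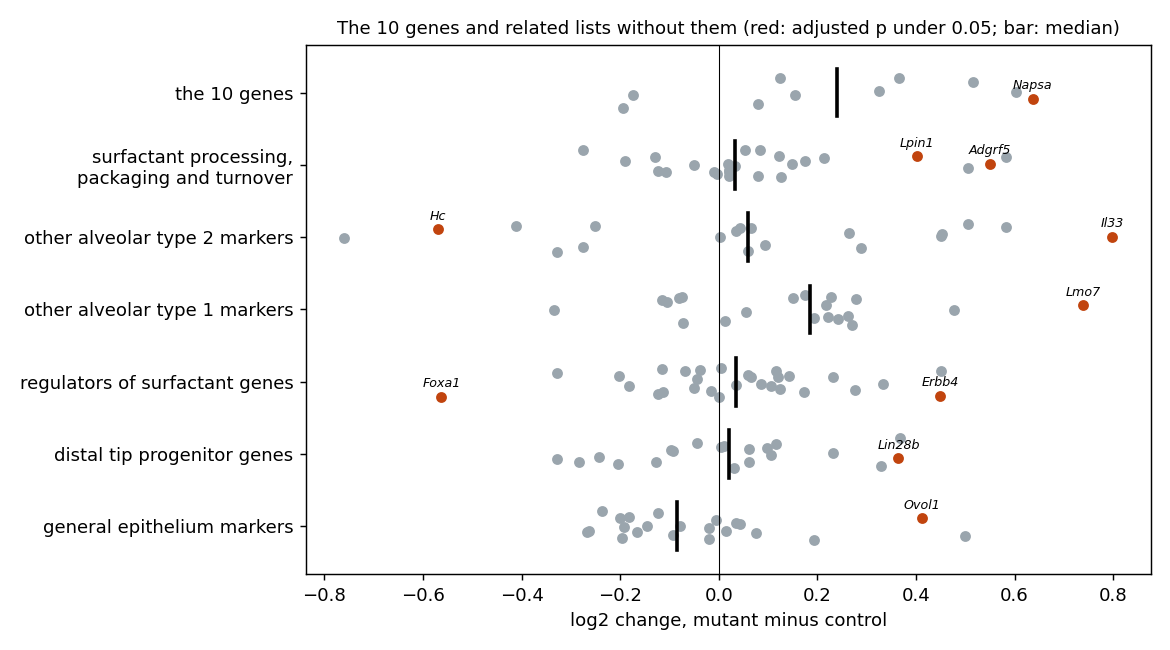
Log2 change (x axis, mutant minus control) of the 10 genes and of the other genes in 6 related lists, with 1 point per gene, red where the adjusted p is under 0.05 by limma, and a bar at the median. Napsa, Adgrf5, Lpin1, Il33, Lmo7, Erbb4, Lin28b and Ovol1 are red on the right, and Hc and Foxa1 on the left.

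Relatives of the 10 genes by protein family seldom passed. Of 7 measured aspartic proteases, Napsa rose, Cym, the gene of chymosin, fell by 1.78 ± 0.25 (SE) in log2 units, and the other 5 missed the threshold. Among those 5, the lysosomal protease Ctsd had a log2 change of 0.04 and Pgc, which is made by type 2 cells as well as stomach, of 0.39 (adjusted p = 0.39 by limma). Counting the family's own members among the 10 genes, by limma 0 of 7 collectins passed (1 with an unadjusted p under 0.05), as did 0 of 12 ABCA transporters (2), 0 of 5 LAMP proteins (1), 0 of 8 LPCAT and MBOAT acyltransferases (1) and 0 of 6 ligands of RAGE (0). Over all genes an unadjusted p under 0.05 was found for 9.87%. The paralogues Abca1, Lamp1, Lamp2 and Lpcat3 had log2 changes of 0.17, −0.08, 0.03 and 0.12.

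The 2 nearest measured genes on each side of each of the 10 gave 37 further genes. Of these 0 were called and 6 had an unadjusted p under 0.05 by limma, beside 9.87% of all genes. Their log2 changes were −0.24 to 0.28, with a median of −0.03. Around Napsa on chromosome 7 the values were 0.02 for Spib, 0.05 for Pold1, −0.07 for Myh14 and −0.24 for Izumo2. Sftpa1 and Sftpd lie near each other on chromosome 14, where Sftpa1 is the second measured gene before Sftpd, with log2 changes of 0.60 and 0.12.

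Genes with the profile most like that of a given gene over the 8 arrays were ranked by the root mean square difference between log2 values centred on each gene's mean. For Napsa they were Scin (0.109), an actin-severing protein, Abi3bp (0.11), a matrix protein, and the olfactory receptor Olfr1316 (0.121). Olfr1316 averaged 5.21 in mutants and 4.71 in controls, below the lower quartile of all genes of 6.10. Scin averaged 6.78 in mutants and 6.21 in controls, where it was close to that quartile. For Sftpa1 they were Abi3bp (0.093), Egfl6 (0.0932) and the epoxide hydrolase Ephx1 (0.105). For Sftpb they were Slc34a2 (0.15), Alox5ap (0.177) and Scn7a (0.184). Of these, Scin, Abi3bp and Ephx1 rose in mutants, by log2 changes of 0.56, 0.63 and 0.71 (adjusted p = 0.0187, 0.00861 and 0.00487 by limma). The matched profiles include the difference between groups, so a similar rise follows from the ranking and is no separate result. The call was lost in 8 of 24 alternatives for Scin, 3 of 25 for Abi3bp and 2 of 24 for Ephx1. Mutants 3 and 4 were the embryos with the highest values of all 3 genes whose profile was matched.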

How the data were processed

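Log2 expression per probe set was deposited by the authors for 8 arrays, 1 per embryo. Per the submitters' processing notes the values were made with RMA in oligo, and limma is also named; their versions and options and the genome build are unknown here. In general RMA corrects background, equalises the arrays and summarises probes, so a shift shared by most genes is not visible and changes of dim genes are drawn towards 0. Array medians were 7.05 to 7.12 and correlations between arrays 0.986 to 0.995. The number of arrays sets the precision.

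The platform annotation gave a single symbol to 23521 of 41345 probe sets and more than 1 to 1814, and did not list 16010. The probe set with the highest mean represented each gene, giving 22180 genes. Mutants were compared with controls by limma 3.58.1 in R 4.3.3 taking litter as random block (duplicateCorrelation consensus 0.153), 2-sided, with Benjamini-Hochberg adjustment over all genes and a threshold of 0.05. Exact permutation tests ran over all 70 assignments of embryos. Gene lists were described by counts and medians. Named were the 10 genes, the called genes and up to 4 most highly expressed others of a list, neighbours and like profiles. Ctsh, Slc34a2, Cebpa, Nkx2-1, Muc1, S100a6, Fabp5 and some club cell genes are named beyond this rule. The members and lists were chosen with earlier results of these data known. In 5 simulated draws of mutant against control with 200 of 22180 genes changed, the share recovered was 43.6% at 1.25-fold, 84% at 1.5-fold and 98% at 2-fold, and 8.67% of calls were false. The draws gave every gene the same litter correlation of 0.15, and the shares are averages over genes. They do not hold for single genes whose litters differ more, such as Sftpa1 and Lamp3. Alternatives covered litters, single embryos, dim genes, scaling, probe sets, variance prior, array weights, Xist, the epithelium mean and the threshold. Some of them keep a gene's log2 change by design, such as those choosing among probe sets for a gene with a single one. Plots used matplotlib 3.10.9 under Python 3.11.15.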

Additional observations from a re-analysis of the deposited data

Results flagged for a closer look

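In 3 of 50 sets of 4 values 1 embryo was far from the other 3, where chance gives about 1 in 20, or 2.5. None of the 20 groups formed by the 10 surfactant and alveolar genes was among them. The values were Hc in control 4 (log2 value 6.44, the highest control), Cbr2, a club cell gene, in control 1 (7.99, the highest control) and Meis2, a mesenchyme gene, in control 3 (10.37, the lowest control).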

How the results depend on the processing

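The 1 call among the 10 genes varied with the setting. Of 26 alternatives, 11 called 0 of them higher, 6 called 1, 6 called 2, 2 called 3 and 1 called 4, and none called a gene lower. The count was 0 with litter means, without litter 1 or litter 4, with arrays centred on their medians, with quantile normalization repeated and with all probe sets tested, 2 without litter 3, with a trended robust variance prior, with array weights, with the Xist level and at an adjusted p of 0.1, 3 without litter 2 and 4 with the epithelium mean. Leaving out single embryos gave 0 to 2. With the replicate number as a block it was 3 (Napsa, Sftpa1 and Lamp3); same-numbered embryos deviated together at correlations of −0.272 to 0.0269, so the numbers do not pair the samples.

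Over all genes, main counts were 134 higher and 55 lower. They were 65 and 33 with litter means, 75 and 23 without litter 4, 77 and 26 with all probe sets tested, 361 and 313 with Xist, and 257 and 97 with the epithelium mean. Genes called lower numbered 95 with no litter block, 90 without litter 1 and 96 at an adjusted p of 0.1. Without single embryos the counts ran from 73 to 157 and from 28 to 75, the lowest without mutant 4. Direction turned for Sftpb (−0.031 without litter 4), Sftpc (−0.026 without litter 1), Nkx2-1 (0.012 without litter 2, 0.045 without litter 3, and −0.072 to 0.0053 without single embryos) and Ctsd (−0.085 without litter 1, and −0.0052 to 0.087 without single embryos), all uncalled; the cause was not tested. With 42 named genes followed, no other turned. With only genes above the median level, Hopx and Sftpd had no value. The fits without a litter took littermates as independent.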

Other observations

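Club cell genes, which mark airway secretory cells, were measured beside the alveolar genes. Of 12, with a median log2 change of 0.06, 3 rose (Cbr2 by 2.26, Krt4 by 1.22 and Lypd2 by 0.43 in log2 units), 0 fell and 9 did not pass by limma with Benjamini-Hochberg adjustment, and the mean level of the list was 6.99 to 7.20 in mutants and 6.61 to 6.81 in controls, so the groups did not overlap. The calls of Cbr2 and Krt4 held in every alternative that gave a value, 25 and 24, and that of Lypd2 was lost in 10 of 24, among them litter means (adjusted p = 0.129 by limma) and without mutant 3 (0.0677), mutant 4 (0.126), control 2 (0.0684) and control 4 (0.136). The list mean rests mostly on Cbr2 and Krt4. Of the 9 that did not pass, Cyp2f2 and Gabrp had log2 changes of 0.64 and 0.38 (limma adjusted p = 0.136 for each). That of Aldh1a1 was −0.57 (limma adjusted p = 0.239). Scgb1a1, Scgb3a1, Scgb3a2, Bpifa1, Pigr and Upk3a had log2 changes of 0.01, 0.04, 0.06, 0.03, 0.02 and 0.07. Muc1 and S100a6 were picked after their values were seen. Muc1, a membrane mucin of the type 2 list, averaged 8.56 in mutants and 9.32 in controls, a log2 change of −0.76 (limma adjusted p = 0.0716) that passed in 7 of 25 alternatives. S100a6, of the type 1 list, averaged 8.06 in mutants and 7.59 in controls (log2 change 0.48, adjusted p = 0.0518 by limma) and passed in 10 of 25 alternatives. Sftpa1 passed in 7 of 25 alternatives, with adjusted p from 0.00352 to 0.424 by limma, and Lamp3 in 3 of 25 and Hopx in 3 of 24.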
